A study of Mus musculus with 8 samples.

Results

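The 39 Hox genes of the mouse were followed through 8 RNA-seq libraries of the embryonic stem cell line 46C. They were chosen by symbol, as every gene named Hoxa, Hoxb, Hoxc or Hoxd with a number, out of 22717 genes and other features measured at day 5 or day 0. All 39 were listed in at least 1 day 5 library, and 38 in the day 0 table, which does not list Hoxd12. The tested lines were LincNDIME_KO (here KO), labelled as lacking the long intergenic RNA NDIME, and shMef2c, which carries a hairpin RNA against the transcription factor gene Mef2c. Their controls were shCtrl, with a control hairpin, and wild type (WT). Each line gave 1 library at day 5 and 1 at day 0. Day 5 cells are labelled neural progenitor cells and were grown as free-floating aggregates in medium with serum replacement. Day 0 cells were stem cells on irradiated mouse embryonic fibroblasts in serum with the cytokine LIF, so every day 0 library can also hold fibroblast RNA. All groups share the parent line 46C, in which the neural gene Sox1 is tagged with green fluorescent protein. The labels do not say whether a line came from a single clone.

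Hox genes encode homeodomain transcription factors that give cells their place along the head-to-tail axis. They lie in 4 clusters, Hoxa on chromosome 6 (11 genes), Hoxb on chromosome 11 (10 genes), Hoxc on chromosome 15 (9 genes) and Hoxd on chromosome 2 (9 genes), and are numbered 1 to 13 by paralogue group. Genes at the low end of the numbering are switched on first and as far forward as the hindbrain, and those at the high end later and nearer the tail. Retinoic acid and the factors of the hindbrain segments act on the low-numbered genes. Caudal factors of the Cdx family act on the middle of the clusters, and Polycomb complexes keep all 4 clusters silent in stem cells.

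With 1 library per group no test was possible, and every statement below describes these libraries. A level is the authors' FPKM at day 5 or RPKM at day 0, both per gene length and library depth. The 2 days were normalized in separate tables, so levels of different days are set side by side as values, with no count of changes. A difference is given in 2 ways. The log2 ratio was taken on levels plus 1, and a gene was called higher or lower at 2-fold or more when the pair averaged 1 or more. Because most Hox genes lie under that level, a second rule was added after the values were seen. It uses the ratio of read shares, the gene's estimated reads over all reads assigned to genes, and calls a ratio of 2-fold or more whose exact 95% interval does not reach 1. These intervals cover counting error only, not differences between cultures.

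Libraries held 25996204 to 26834802 reads at day 5 and 20312032 to 20883674 at day 0. No feature named NDIME was found, so its deletion was not checked. Mef2c had 20 reads in shMef2c and 82 in shCtrl at day 5, a read share ratio of 0.24 (95% interval 0.14 to 0.39). KO had 17 Mef2c reads and WT 77 (ratio 0.22, 0.12 to 0.38). At day 0 Mef2c had 44 reads in the library labelled shMef2c and 20 in shCtrl, so that this library goes against its label (ratio 2.21, 1.27 to 3.95). Of 8 neural progenitor markers, all were detected in all 4 day 5 libraries. Their summed level was 191 FPKM in KO and 436 in WT, and 147 in shMef2c and 522 in shCtrl. Sox2, which stem cells share, made up 104 of the sum in KO and 98.4 in WT, and 118 in shMef2c and 103 in shCtrl. Pax6, a defining gene of neural progenitors, was at 8.15 FPKM in KO and 11.99 in WT, and at 0.21 in shMef2c and 12.3 in shCtrl, so shMef2c carried this marker least. In RNA from whole cultures, fewer cells of a type and less RNA per cell cannot be told apart.

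Promoters from both ends of the pattern described below are shown first. They were picked by hand, and each holds the motif marked in it. The sequences are from RefSeq (assembly GRCm38.p6, not the mm9 build named for the files) and cover the 250 bases before the annotated start. Matches were sought on both strands for TGATNNAT, a motif that Hox proteins bind together with Pbx partners, for TTTATG, a motif of caudal factors, and for AGGTCA, the half-site of retinoic acid receptors. The first set shows Hoxb1 and Hoxa2, low-numbered genes whose levels were lower in KO, with TGATNNAT in capitals.

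Hoxb1, chr11:96365508-96365757, plus strand: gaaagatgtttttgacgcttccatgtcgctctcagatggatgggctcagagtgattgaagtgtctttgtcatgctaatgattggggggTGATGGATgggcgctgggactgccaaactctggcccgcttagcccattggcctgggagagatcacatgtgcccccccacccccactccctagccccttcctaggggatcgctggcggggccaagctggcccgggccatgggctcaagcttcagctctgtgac

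Hoxa2, chr6:52164832-52165081, minus strand: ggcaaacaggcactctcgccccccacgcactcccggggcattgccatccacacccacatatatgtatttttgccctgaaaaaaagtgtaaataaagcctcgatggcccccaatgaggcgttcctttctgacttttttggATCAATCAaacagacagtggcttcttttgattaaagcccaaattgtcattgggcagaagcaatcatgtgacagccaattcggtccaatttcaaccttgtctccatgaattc

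The next set shows Hoxa7, Hoxb8 and Hoxd4, middle genes that were higher in shMef2c, with TTTATG in capitals, or CATAAA where the match is on the other strand.

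Hoxa7, chr6:52218574-52218823, minus strand: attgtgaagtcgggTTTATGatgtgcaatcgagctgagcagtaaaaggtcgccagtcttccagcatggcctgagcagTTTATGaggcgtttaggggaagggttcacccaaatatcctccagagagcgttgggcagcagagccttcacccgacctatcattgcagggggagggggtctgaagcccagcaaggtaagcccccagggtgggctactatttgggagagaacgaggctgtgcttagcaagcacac

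Hoxb8, chr11:96281655-96281904, plus strand: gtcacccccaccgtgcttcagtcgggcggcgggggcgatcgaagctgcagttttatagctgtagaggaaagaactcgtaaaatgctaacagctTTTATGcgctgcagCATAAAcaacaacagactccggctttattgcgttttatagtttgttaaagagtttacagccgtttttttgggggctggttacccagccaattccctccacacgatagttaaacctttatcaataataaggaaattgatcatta

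Hoxd4, chr2:74721728-74721977, plus strand: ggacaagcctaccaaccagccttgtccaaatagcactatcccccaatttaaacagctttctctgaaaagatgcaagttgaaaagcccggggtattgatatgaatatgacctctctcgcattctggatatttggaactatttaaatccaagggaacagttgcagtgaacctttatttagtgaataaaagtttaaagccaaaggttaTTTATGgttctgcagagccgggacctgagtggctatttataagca

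RefSeq promoters were at hand for 22 of the 39 genes. TGATNNAT was found in the promoters of 4 of them (Hoxa2, Hoxb1, Hoxb8 and Hoxd11) and in 7.68% of all 32851 promoters. TTTATG was found in 5 (Hoxa7, Hoxb8, Hoxd3, Hoxd4 and Hoxd11) and in 10.8% of all promoters, and AGGTCA in 6 (Hoxb4, Hoxc4, Hoxd3, Hoxd4, Hoxd8 and Hoxd10) and in 14.0%. In Hoxd3 the matches of TTTATG and AGGTCA share 2 bases. A match is a run of letters and not a bound site, and a window without one says nothing of the factor.

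Hox genes were a small class of RNA in every library, and a few genes carried most of it. The summed day 5 level was 20.0 FPKM in KO and 128 in WT, and 119 in shMef2c and 107 in shCtrl. Day 0 sums were 28.03 RPKM in KO and 11.9 in WT, and 24.0 in the library labelled shMef2c and 18.0 in shCtrl. The leading gene was Hoxb2 in all 4 day 5 libraries and Hoxb9 in all 4 day 0 libraries. At day 5, 4 of 39 genes reached 1 FPKM in KO and 9 in WT, and 24 did in shMef2c and 12 in shCtrl. The mean paralogue number, weighted by level, was 2.94 in KO and 2.50 in WT at day 5, and 5.07 in shMef2c and 2.95 in shCtrl. At day 0 it lay between 7.74 and 8.54. The stem cell libraries thus held little Hox RNA, mostly of high-numbered genes, and the 3 other day 5 libraries than shMef2c held mainly genes 1 to 3. Over both days 13 of the 39 genes never reached 1 in any library, the highest of them being Hoxb5 at 0.92 FPKM in shMef2c. These were Hoxa6, Hoxa10, Hoxa11, Hoxa13, Hoxb5, Hoxc5, Hoxc11, Hoxc12, Hoxd1, Hoxd10, Hoxd11, Hoxd12 and Hoxd13.

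**Figure D1:**
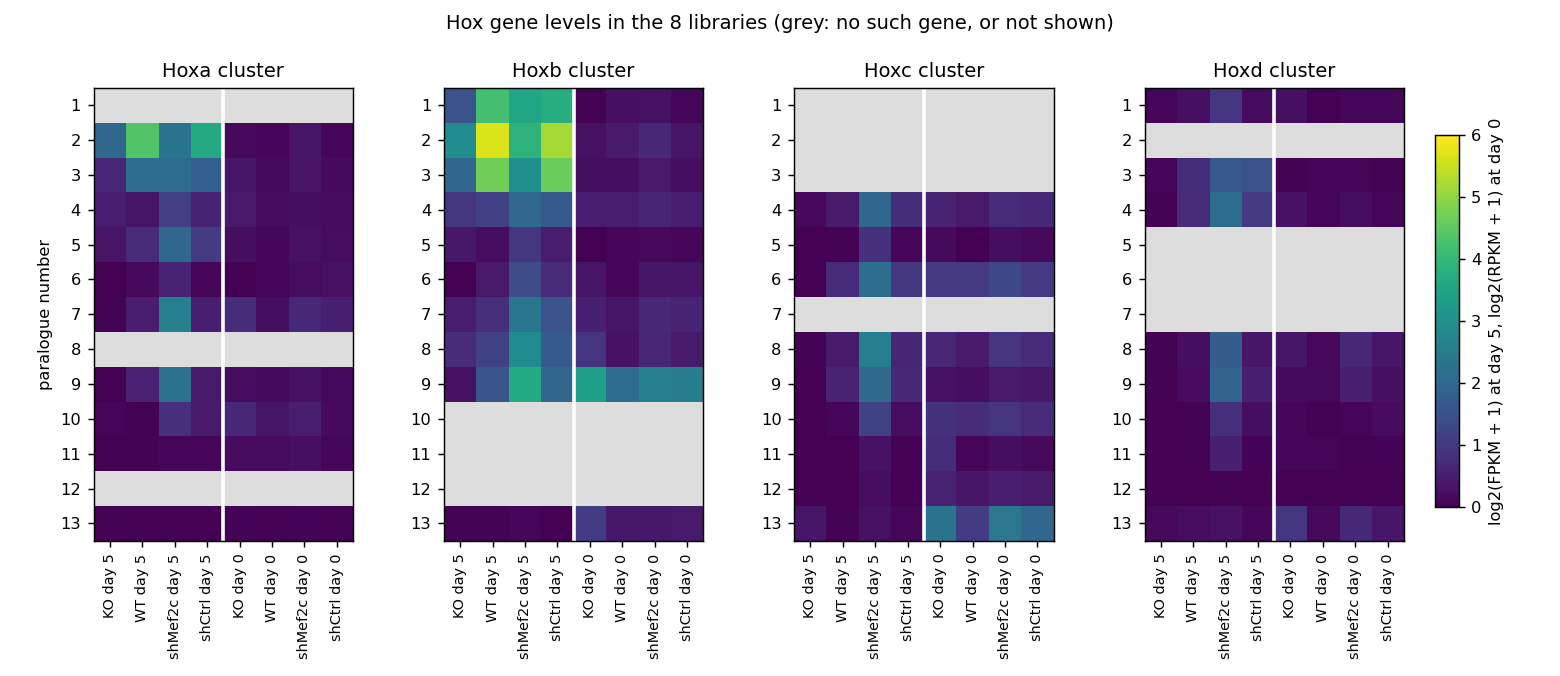
Levels of Hox genes, as log2(FPKM + 1) at day 5 and log2(RPKM + 1) at day 0, by cluster (panels), paralogue number (rows) and library (columns); grey marks numbers that a cluster lacks or that are not shown, and genes not listed are drawn at 0. Signal at day 5 sits at the top of the Hoxa and Hoxb panels, reaching 49.3 FPKM for Hoxb2 in WT, shMef2c alone fills the middle rows of all 4 panels, and at day 0 Hoxb9 and Hoxc13 stand out.

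In KO at day 5 the Hox genes were lower than in WT, and most of the missing level belonged to genes 1 to 3. Of the 39 genes 6 were called lower and 0 higher, where 3.26% of the 12832 features tested were lower and 4.05% higher. Only 8 of the 39 reached the level that the rule asks for. By read shares 17 were lower (7.16% of 20252 features) and 1 was higher (7.79%). The median log2 ratio of the 39 was -0.20, against 0.00 over all 21069 features. Hox genes as a whole had 1123 reads in KO and 7577 in WT, a ratio of 0.15 (0.14 to 0.16).

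Hoxb1, which gives a hindbrain segment its identity and keeps itself on through Pbx sites in its own promoter, was at 1.89 FPKM in KO and 17.6 in WT (log2 ratio -2.68). Hoxb2, which acts with it in hindbrain motor neurons, was at 6.53 in KO and 49.3 in WT (-2.74). Hoxb3, a gene of the segments behind, was at 2.93 in KO and 24.8 in WT (-2.72). Against WT these 3 neighbours in the Hoxb cluster differed by nearly the same factor. Their read share ratios were 0.11 (0.087 to 0.13) for Hoxb1, 0.13 (0.12 to 0.15) for Hoxb2 and 0.12 (0.10 to 0.13) for Hoxb3, and the intervals overlap. Against shCtrl they were 0.18 (0.16 to 0.21) for Hoxb2 and 0.12 (0.11 to 0.14) for Hoxb3, which do not overlap, so the shared factor depends on the control. In the Hoxa cluster, Hoxa2, which patterns the front hindbrain and the second pharyngeal arch, was at 3.09 FPKM in KO and 19.6 in WT (-2.33). Hoxa3, needed for thymus and parathyroid, was at 0.57 in KO and 3.49 in WT (-1.52). Of the group 3 genes, Hoxd3 was the scarcest, at 0.08 FPKM in KO and 0.72 in WT, or 6 and 70 reads (0.087, 0.031 to 0.20).

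Group 4 marks the hindbrain's end and the neck. Hoxb4 was at 0.94 FPKM in KO and 1.21 in WT, with 62 and 81 reads (0.78, 0.55 to 1.09). Hoxa4 was at 0.39 in KO and 0.26 in WT, with 15 and 10 reads. Neither passed 2-fold. Hoxd4, with 2 reads in KO and 93 in WT (0.022, 0.0026 to 0.081), was nearly missing from KO, at 0.02 FPKM against 0.63. Against shCtrl the ratio of Hoxd4 was 0.012 (0.0015 to 0.045). Members of 1 paralogue group therefore differed in their ratios, and the intervals of Hoxb4 and Hoxd4 do not overlap against either control. Hoxc4 was at 0.10 FPKM in KO and 0.35 in WT.

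From group 5 on, KO held almost no Hox RNA, and WT held little. The 11 genes of groups 5 to 8 summed to 1.69 FPKM in KO and 4.87 in WT, and the 16 genes of groups 9 to 13 to 0.75 in KO and 3.45 in WT. Hoxb9, a gene of the thoracic cord, made up most of the second sum in WT but not in KO, at 0.20 FPKM in KO and 1.98 in WT (log2 ratio -1.31; 14 and 140 reads). The trunk genes Hoxa9, Hoxc6 and Hoxc9 had 0 reads in KO, and 38, 27 and 26 reads in WT, where they were at 0.47, 0.66 and 0.50 FPKM. With 3 reads as the floor of a library, they were at least 12.5-fold, 8.89-fold and 8.66-fold lower in KO. Hoxb6 had 0 reads in KO and 11 in WT, or 0.32 FPKM (at least 3.62-fold lower), and Hoxc10 had 0 in KO and 4 in WT, or 0.08 FPKM. Hoxa7 was at 0.02 FPKM in KO and 0.40 in WT, and Hoxc8 at 0.02 and 0.34. Each had 1 read in KO, against 44 and 21 in WT, so KO was near the limit of detection for both. Hoxd8 was at 0.02 in KO and 0.17 in WT, and Hoxd9 at 0.02 and 0.13. Less complete against WT was the difference in Hoxb8, at 0.69 FPKM in KO and 1.23 in WT, with 47 and 85 reads (0.56, 0.38 to 0.81). Hoxb7 was at 0.38 in KO and 0.78 in WT, with 12 and 25 reads (0.49, 0.22 to 1.00). Against shCtrl both were called lower by read shares, Hoxb8 at 0.31 (0.22 to 0.43) and Hoxb7 at 0.20 (0.098 to 0.38). Hoxa5 was at 0.25 in KO and 0.68 in WT, with 12 and 33 reads (0.37, 0.17 to 0.73). Hoxc13, best known from hair and nails, was the 1 gene higher in KO by read shares, with 17 reads in KO and 2 in WT (8.61, 2.04 to 76.8), at 0.27 and 0.03 FPKM. In the authors' deposited table of KO with WT, 14 Hox genes are listed, Hoxc13 as up and 13 as down. It lists 2253 genes in all, 1151 as up and 1102 as down.

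**Figure D2:**
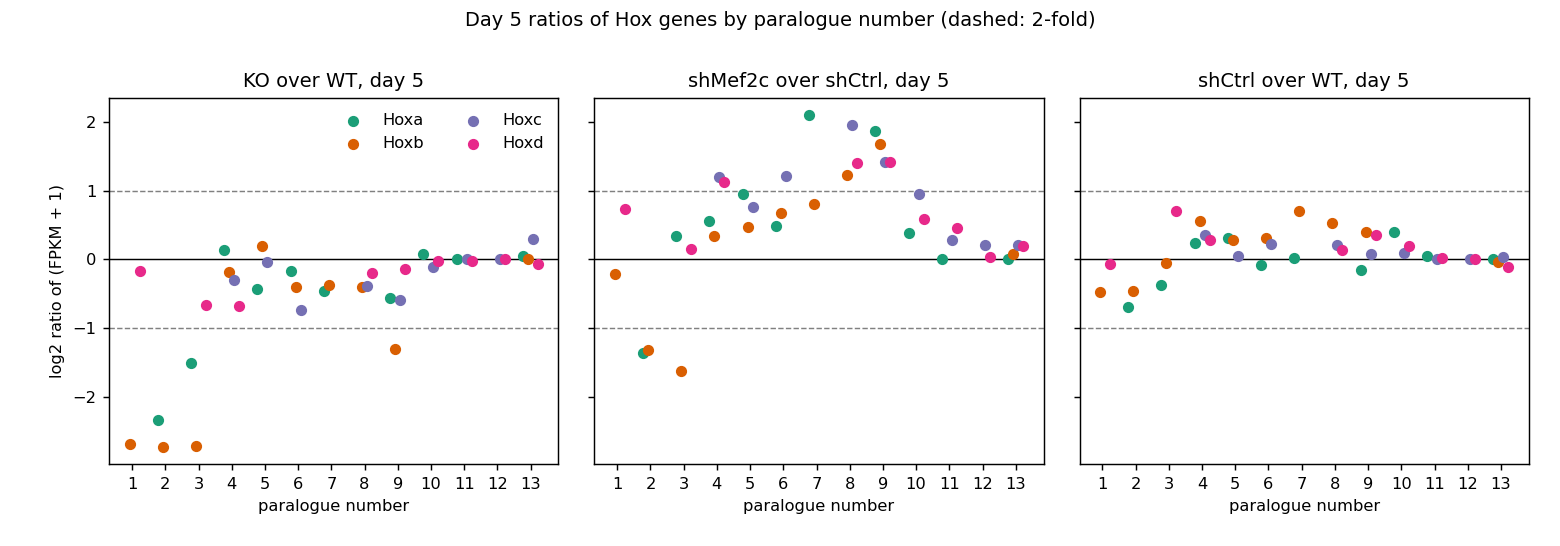
Log2 ratio of (FPKM + 1) for Hox genes at day 5 (vertical axis) against paralogue number (horizontal axis, clusters side by side in colour) for KO over WT, shMef2c over shCtrl and shCtrl over WT; dashed lines mark 2-fold. KO over WT reaches -2.74 at groups 1 to 3, shMef2c over shCtrl lies below -1 for Hoxa2, Hoxb2 and Hoxb3 and reaches 2.10 in the middle groups, and no gene crosses a dashed line between the controls.

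In shMef2c at day 5 the summed Hox level was close to that of shCtrl, with Hoxa2, Hoxb2 and Hoxb3 lower and most genes of groups 4 to 9 higher. The rule on levels called 12 of the 39 higher than in shCtrl and 3 lower, where 4.49% of 13041 features were higher and 4.78% lower, and 22 of the 39 reached the level needed. By read shares 26 were higher (8.34% of 20285 features) and 3 were lower (9.24%). The median log2 ratio was 0.57, against 0.00 over all features. Hox genes as a whole had 7746 reads in shMef2c and 6551 in shCtrl (ratio 1.15, 1.12 to 1.19).

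The 3 lower genes were Hoxb2, Hoxb3 and Hoxa2. Hoxb2 was at 13.6 FPKM in shMef2c and 35.6 in shCtrl (log2 ratio -1.33), Hoxb3 at 7.08 in shMef2c and 23.9 in shCtrl (-1.63), and Hoxa2 at 3.95 in shMef2c and 11.7 in shCtrl (-1.36). Hoxb1, which lies beside Hoxb2, was at 10.6 in shMef2c and 12.4 in shCtrl (-0.21; read share ratio 0.85, 0.76 to 0.96), so its ratio lay above those of Hoxb2 (0.38, 0.35 to 0.42) and Hoxb3 (0.30, 0.28 to 0.33). Hoxa3 was at 3.36 FPKM in shMef2c and 2.45 in shCtrl, but at 480 and 507 reads. Its 2 measures disagree in sign because the length that the authors give for this gene was 5430 bases in shMef2c and 8031 in shCtrl. Hoxd3 was at 2.13 FPKM in shMef2c and 1.81 in shCtrl.

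In groups 4 to 9 nearly every gene stood higher in shMef2c. Group 4 genes were at 1.19 FPKM in shMef2c and 0.48 in shCtrl for Hoxa4, at 3.13 and 2.27 for Hoxb4, at 2.94 and 0.72 for Hoxc4, and at 3.32 and 0.98 for Hoxd4. Hoxc4 (log2 ratio 1.20) and Hoxd4 (1.13) passed 2-fold. Hoxb4, a gene also known from blood stem cells, did not (read share ratio 1.38, 1.11 to 1.72). Of the genes of groups 5 and 6, Hoxa5, needed in the lung and the neck, was at 3.04 FPKM in shMef2c and 1.09 in shCtrl (0.95). Hoxb6 was at 1.63 in shMef2c and 0.64 in shCtrl (0.68). Hoxc6, a gene of forelimb-level motor neurons, was at 3.50 in shMef2c and 0.94 in shCtrl (1.21).

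The largest ratio of the 39 was that of Hoxa7, a trunk gene, at 5.10 FPKM in shMef2c and 0.42 in shCtrl (log2 ratio 2.10; 525 and 31 reads, ratio 16.5, 11.5 to 24.6). Its promoter holds the 2 TTTATG matches printed above, and their part in its level was not tested. Hoxd3, whose promoter also holds TTTATG, was not called in shMef2c (read share ratio 1.15, 0.93 to 1.42). Hoxb7 was at 4.09 in shMef2c and 1.90 in shCtrl (0.81). Group 8 stood at 6.58 in shMef2c and 2.23 in shCtrl for Hoxb8 (1.23), at 5.04 and 0.55 for Hoxc8 (1.96), and at 2.41 and 0.29 for Hoxd8 (1.40). All 11 genes of groups 5 to 8 were higher by read shares.

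Group 9, the genes of the thoracic cord, was the highest of all paralogue groups in shMef2c, at 21.6 FPKM in sum and 4.28 in shCtrl. Hoxb9 was at 11.7 in shMef2c and 2.94 in shCtrl (log2 ratio 1.69), Hoxa9 at 3.83 and 0.32 (1.87), Hoxc9 at 3.22 and 0.58 (1.42), and Hoxd9 at 2.84 and 0.44 (1.42). All 4 members thus passed 2-fold. Past group 9 the levels dropped steeply. Group 10, active at the lumbar level, summed to 2.73 FPKM in shMef2c and 0.66 in shCtrl, with Hoxc10 at 1.23 and 0.15. Group 11 summed to 0.70 in shMef2c and 0.09 in shCtrl, group 12 to 0.17 and 0, and group 13 to 0.47 and 0.10. Within these tail-end groups Hoxd11 had 44 reads in shMef2c and 4 in shCtrl (10.7, 3.91 to 41.2), and Hoxd10 had 36 and 8 (4.40, 2.01 to 10.9). The authors' deposited table of shMef2c with shCtrl lists 23 Hox genes, 20 as up and 3 as down. Of its 2758 genes in all, 1229 are up and 1529 down.

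The clusters differed in how far they moved. In shMef2c the Hoxc cluster, which has no gene of groups 1 to 3, summed to 17.3 FPKM and in shCtrl to 3.06 (read share ratio 5.92, 4.98 to 7.08). Hoxd summed to 12.99 in shMef2c and 3.91 in shCtrl (2.76, 2.46 to 3.11), and Hoxa to 29.8 and 18.1 (1.76, 1.64 to 1.89). Only Hoxb, which holds the leading low-numbered genes, was lower in sum, at 59.3 in shMef2c and 82.3 in shCtrl (0.71, 0.68 to 0.75). In KO all 4 clusters were lower, Hoxa at 5.41 FPKM in KO and 26.4 in WT, Hoxb at 13.9 and 97.4, Hoxc at 0.39 and 1.99, and Hoxd at 0.30 and 2.03.

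**Figure D3:**
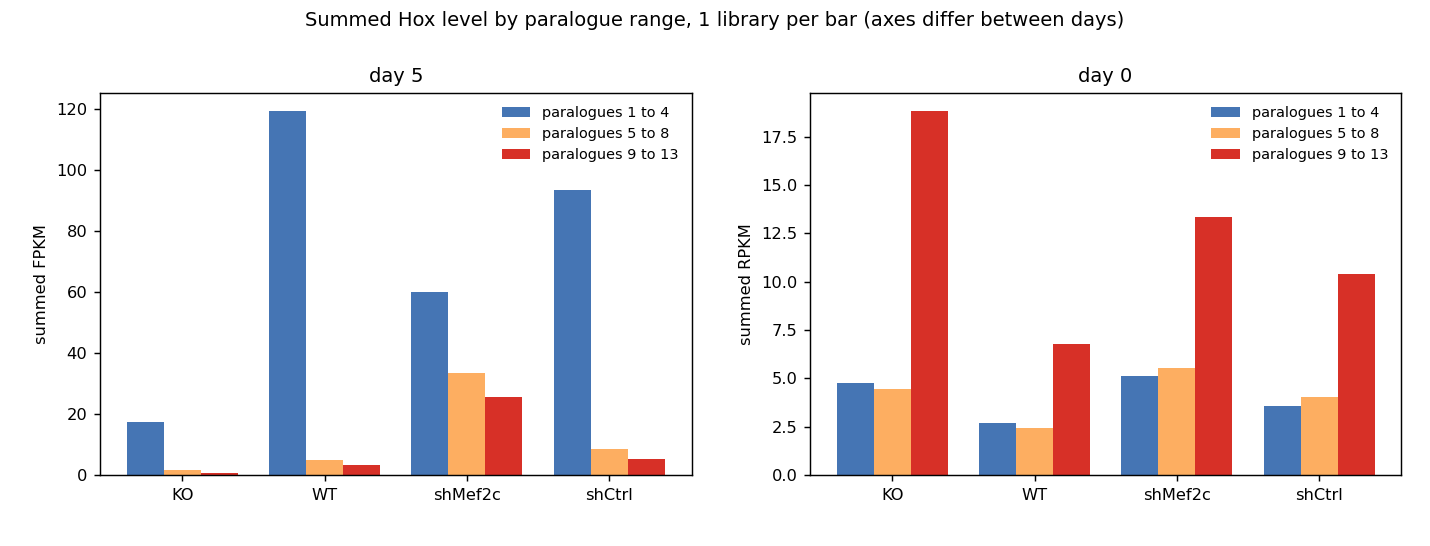
Summed level of the 12 genes of groups 1 to 4, the 11 of groups 5 to 8 and the 16 of groups 9 to 13 in each library, as FPKM at day 5 (left panel) and RPKM at day 0 (right panel, a smaller axis); each bar is 1 library. At day 5 groups 1 to 4 reach 17.6 in KO and 119 in WT, and 60.2 in shMef2c and 93.6 in shCtrl, while groups 5 to 8 reach 33.6 in shMef2c and 8.57 in shCtrl.

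The KO and shMef2c pairs have no library in common, so their calls can be set side by side. By read shares, 11 of the 17 genes lower in KO were among the 26 higher in shMef2c, namely Hoxa5, Hoxa7, Hoxa9, Hoxb6, Hoxb9, Hoxc4, Hoxc6, Hoxc8, Hoxc9, Hoxd4 and Hoxd8. That is 64.7% of the genes lower in KO and 42.3% of those higher in shMef2c, where 66.7% of all 39 were higher in shMef2c, so the overlap is near what the 39 show as a whole. In both lines 3 were lower, Hoxa2, Hoxb2 and Hoxb3, and 3 were lower in KO alone by the call, Hoxa3, Hoxb1 and Hoxd3. Whether these 3 differ between the lines was not tested. Hoxc13 was higher in both, on 17 reads in KO and 2 in WT, and 13 in shMef2c and 3 in shCtrl. Hoxb9 was the 1 gene called in opposite directions by the rule on levels.

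**Figure D4:**
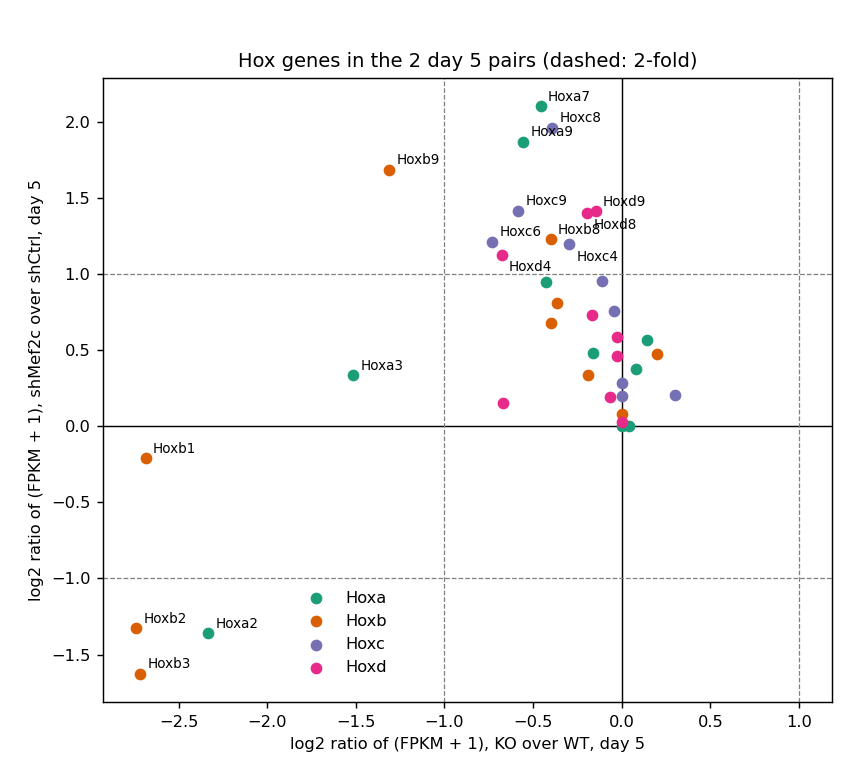
Log2 ratio of (FPKM + 1) of Hox genes at day 5 in KO over WT (horizontal axis) against shMef2c over shCtrl (vertical axis), coloured by cluster; genes past 2-fold (dashed lines) in either pair are named. Hoxb2, Hoxb3 and Hoxa2 lie low in both pairs, Hoxb9 lies at -1.31 and 1.69, and most middle genes lie near 0 on the horizontal axis, where their low levels limit the ratio, and above 0 on the vertical axis.

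The control libraries give the only view of how far cultures differ. Between shCtrl and WT at day 5, the rule on levels called 0 Hox genes, where 0.724% of 12845 features were higher and 0.272% lower, and 11 of the 39 reached the level. By read shares 7 were higher in shCtrl (3.90% of 20021 features) and 0 lower (1.86%). These were Hoxa10, Hoxb5, Hoxb7, Hoxc4, Hoxd3, Hoxd9 and Hoxd10, the best counted of them Hoxd3 with 171 reads in shCtrl and 70 in WT (ratio 2.52, 1.90 to 3.38). The low-numbered genes ran the other way, with Hoxa2 at 11.7 FPKM in shCtrl and 19.6 in WT and Hoxb2 at 35.6 and 49.3. Groups 5 to 8 summed to 8.57 in shCtrl and 4.87 in WT (read share ratio 1.64, 1.41 to 1.92), and the Hoxd cluster to 3.91 and 2.03 (2.01, 1.69 to 2.40). In groups 5 to 8 and 9 to 13 the controls therefore differ in the same sense as shMef2c and shCtrl do, by less. Groups 5 to 8 had a ratio of 4.61 (4.14 to 5.13) in the shMef2c pair. Groups 9 to 13 had one of 5.01 (4.45 to 5.66) there and of 1.44 (1.22 to 1.72) between the controls. The Hoxa cluster went opposite ways, at 0.76 (0.71 to 0.82) between the controls and 1.76 (1.64 to 1.89) in the shMef2c pair. Against the other control of its day, all 6 genes called lower in KO were called again (7 in all, against 5.52% of features), as were all 12 higher in shMef2c (14 in all, against 3.99%) and all 3 lower (3.22%). By read shares all 17 lower in KO were called again (24 in all, against 11.3%), and 24 of the 26 higher in shMef2c (26 in all, against 8.52%).

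At day 0 the Hox genes were scarce, and the KO library held more of them than WT. The rule on levels called 2 of the 39 higher and 0 lower, where 1.35% of 12002 features were higher and 1.58% lower, and 4 reached the level. By read shares 13 were higher (4.40% of 18350 features) and 1 was lower (3.33%). Hox reads came to 1332 in KO and 569 in WT (ratio 2.41, 2.18 to 2.66). Hoxb9 was at 9.52 RPKM in KO and 3.37 in WT, and at 5.04 in the library labelled shMef2c and 4.80 in shCtrl. Hoxc13 was at 3.94 in KO and 1.10 in WT, and at 4.30 in the library labelled shMef2c and 2.92 in shCtrl. The WT library was the lowest of the 4 for both genes, so the KO difference depends on the control chosen. Against shCtrl, the rule on levels called 0 Hox genes in KO (0.833% of features were higher and 0.966% lower), and by read shares 7 were higher (3.14%), 6 of them among the 13. Those 6 were Hoxa3, Hoxa10, Hoxb8, Hoxb13, Hoxc11 and Hoxd13.

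Hoxb13, a gene of the tail end and the prostate, was at 1.10 RPKM in KO and 0.30 in WT, and at 0.30 in the library labelled shMef2c and 0.33 in shCtrl. KO was thus the high library for this gene. Hoxc6 was level, at 1.01 in KO and 1.03 in WT, and at 1.48 in the library labelled shMef2c and 1.01 in shCtrl. Hoxb1, a leading gene at day 5, had 0 reads in KO and 8 in WT (at least 2.59-fold lower). In shCtrl Hoxb1 had 2 reads, and KO was not called against that control. The other genes reported here were under 1 RPKM in all 4 libraries.

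In the library labelled shMef2c at day 0, 0 Hox genes were called against shCtrl by the rule on levels, where 0.132% of 12103 features were higher and 0.0991% lower. By read shares 4 were higher (2.00% of 18419 features), Hoxa2, Hoxa10, Hoxb2 and Hoxd13, and 0 were lower (0.684%). Between shCtrl and WT the rule on levels called 0, where 0.755% of 11921 features were higher and 0.512% lower, and read shares called 5 higher (2.68% of 18255) and 0 lower (1.85%). Fibroblasts themselves express Hox genes. The 10 fibroblast markers, none of them at 0, summed to 192 RPKM in KO and 206 in WT. They summed to 348 in the library labelled shMef2c and 212 in shCtrl, where Hox genes summed to 24.0 and 18.0. The part of fibroblasts in the Hox differences of either pair was not tested. At day 5 the same markers summed to between 15.8 and 21.1 FPKM in the 4 libraries.

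Noncoding genes within the clusters were listed in part at day 5, and none of them at day 0. Of 16 sought, 6 were listed. Hoxb5os, which overlaps Hoxb5 and Hoxb6, was at 0 FPKM in KO and 2.59 in WT, and at 12.9 in shMef2c and 4.69 in shCtrl. Hoxaas3, which overlaps Hoxa3, Hoxa5 and Hoxa6, was at 0 in KO and 0.71 in WT, and at 12.2 in shMef2c and 1.21 in shCtrl. These antisense genes were high where the middle Hox genes were high. Hoxaas2, which also overlaps Hoxa3, was at 0 in KO and 3.39 in WT, and at 1.24 in shMef2c and 4.61 in shCtrl, a pattern nearer to that of Hoxa2. No source used here says if reads were assigned by strand, so reads of overlapping genes cannot be told apart. The same holds for Hoxa3 with Hoxa4, Hoxa5 and Hoxa6, Hoxb3 with Hoxb4, Hoxd3 with Hoxd4 and Hoxd10 with Hoxd11, whose annotations overlap.

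Of 13 genes on either side of the clusters, 12 were listed and 8 reached the level. In KO 1 was higher and 0 lower (4.05% and 3.26% of features), and in shMef2c likewise (4.49% and 4.78%). These background shares hold for the lists that follow too. That gene was Calcoco2, beyond the Hoxb cluster, at 22.1 FPKM in KO and 4.51 in WT, and at 20.9 in shMef2c and 3.34 in shCtrl. By read shares 4 of the 12 were higher in KO (Evx1, Evx2, Ttll6 and Calcoco2) and 0 lower (7.79% and 7.16% of features). In shMef2c 3 were higher by read shares (Skap1, Ttll6 and Calcoco2) and 2 lower (Evx2 and Smug1), against 8.34% and 9.24% of features. Evx2, a homeobox gene next to Hoxd13, was at 0.55 FPKM in KO and 0.13 in WT, and had 0 reads in shMef2c and 21 in shCtrl. Mtx2, beside Hoxd, was at 51.5 in KO and 57.1 in WT, and at 55.6 in shMef2c and 56.4 in shCtrl. Skap2, beside Hoxa, was at 18.9 in KO and 18.5 in WT, and at 24.9 in shMef2c and 20.1 in shCtrl.

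Partners of Hox proteins, the homeodomain factors of the Pbx, Meis and Pknox families, were lower in part in both lines. Of 9 partners 2 were lower in KO and 3 in shMef2c, and 0 were higher in either. Meis1 was at 9.74 FPKM in KO and 26.8 in WT, and at 4.66 in shMef2c and 26.1 in shCtrl. Meis3 was at 6.88 in KO and 22.8 in WT, and at 12.5 in shMef2c and 21.9 in shCtrl.

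Caudal regulators, which start the middle and high-numbered Hox genes in the embryo, were mostly called in opposite directions in the lines, each against its own control. Of 12 genes 6 reached the level in KO, with 4 lower and 0 higher. In shMef2c 8 reached it, with 7 higher and 0 lower. By read shares 6 were lower and 1 higher (Evx1) in KO (7.16% and 7.79% of features). In shMef2c 10 were higher and 0 lower by read shares (8.34% and 9.24%). Cdx2 was at 0.38 FPKM in KO and 2.02 in WT, and at 17.3 in shMef2c and 1.06 in shCtrl. Cdx1 and Cdx4 were under 1 in KO and WT. Cdx1 was at 5.70 in shMef2c and 0.28 in shCtrl, and Cdx4 at 5.69 and 0.10. Of the 4 day 5 libraries, shMef2c, which held the highest middle Hox genes, was thus highest for all 3 Cdx genes. At day 0, normalized separately, Cdx1 was at 17.2 RPKM in KO and 5.22 in WT, and at 27.7 in the library labelled shMef2c and 16.1 in shCtrl, where middle Hox genes were scarce. T, the brachyury gene of the primitive streak, was at 0.35 in KO and 40.5 in WT, and at 106 in shMef2c and 36.6 in shCtrl. Nkx1-2, a marker of the progenitors that feed the spinal cord, was at 0.68 in KO and 3.12 in WT, and at 13.8 in shMef2c and 1.60 in shCtrl. Fgf8, the signal that keeps those progenitors, was at 7.89 in KO and 11.6 in WT, and at 32.6 in shMef2c and 6.73 in shCtrl. For Cdx2 and Nkx1-2 the KO level lay nearer to shCtrl than to WT, and for Fgf8 it lay above shCtrl. Whether these genes and the Hox genes come from the same cells was not tested.

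**Figure D5:**
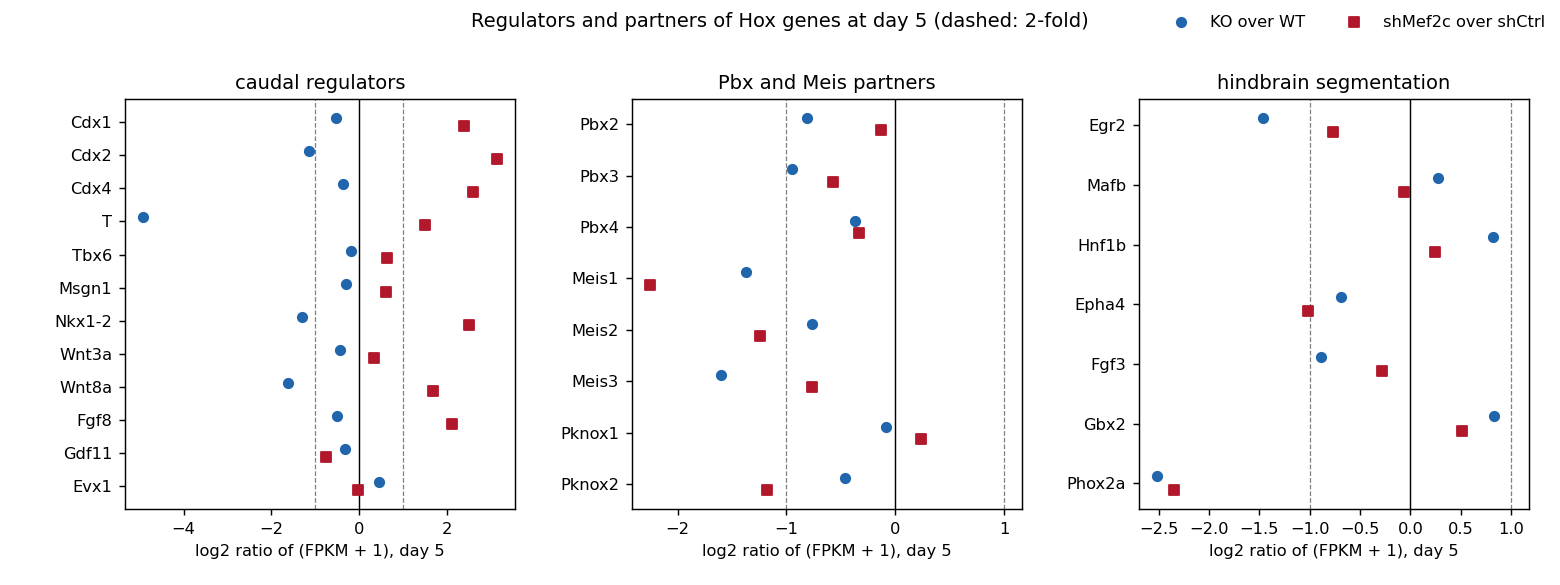
Log2 ratio of (FPKM + 1) at day 5 (horizontal axis) of caudal regulators, Pbx and Meis partners and hindbrain segmentation genes (rows), for KO over WT (circles) and shMef2c over shCtrl (squares); dashed lines mark 2-fold. Cdx2 lies at -1.13 for KO and at 3.15 for shMef2c, while Meis1 and the hindbrain gene Phox2a lie below -1 for both.

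Genes that handle retinoic acid, the signal that opens the low-numbered Hox genes, were called in both directions in each line. Of 18, 1 was higher and 5 lower in KO, and 4 were higher and 5 lower in shMef2c. The controls differed too, with 2 higher in shCtrl than in WT and 0 lower. These were Cyp26a1, at 33.3 FPKM in shCtrl and 8.67 in WT, and Rarb, at 3.56 and 1.08. Cyp26b1, which breaks retinoic acid down in the hindbrain, was at 4.87 FPKM in KO and 19.6 in WT, and at 0.74 in shMef2c and 21.2 in shCtrl. Cyp26c1 was at 1.04 in KO and 8.08 in WT, and at 0.62 in shMef2c and 6.09 in shCtrl. The carrier protein gene Crabp1 was at 364 in KO and 1634 in WT, and at 156 in shMef2c and 850 in shCtrl. Cyp26b1, Cyp26c1 and Crabp1 were lower in both lines. Aldh1a2, the main synthesis enzyme of the trunk, was at 0.60 in KO and 0.51 in WT, and at 4.53 in shMef2c and 1.70 in shCtrl.

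Hindbrain segmentation genes were lower in both lines where they differed, 3 of 8 in each and 0 higher. Phox2a, a gene of hindbrain motor neurons, was at 0.64 FPKM in KO and 8.42 in WT, and at 0.71 in shMef2c and 7.71 in shCtrl. Egr2, which opens Hoxa2 and Hoxb2 in the hindbrain segments, was at 0.29 in KO and 2.55 in WT, and at 0.19 in shMef2c and 1.03 in shCtrl. Forebrain and midbrain genes, in front of the Hox domain, differed between the lines when each line was set against its own control. Of 12, 4 were higher and 1 lower in KO, and 0 were higher and 5 lower in shMef2c, while 2 were higher in shCtrl than in WT. They summed to 73.2 FPKM in KO, 37.1 in WT and 66.1 in shCtrl. The KO sum was thus nearer to that of shCtrl than to that of WT. Lhx2, a forebrain gene, was at 16.8 in KO and 3.38 in WT, and at 0.31 in shMef2c and 6.12 in shCtrl. Hesx1 was at 5.85 in KO and 0.91 in WT, and at 2.03 in shMef2c and 6.55 in shCtrl. KO was thus above WT for Hesx1 but not above shCtrl.

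Polycomb genes, whose products silence the clusters, were called at 2 higher and 0 lower of 20 in KO, and at 2 higher and 2 lower in shMef2c. By read shares the counts were 2 higher and 0 lower in KO, and 2 higher and 3 lower in shMef2c, where 7.79% and 7.16% of features were called in KO and 8.34% and 9.24% in shMef2c. Phf19 was at 8.73 FPKM in KO and 2.12 in WT, and at 6.29 in shMef2c and 1.65 in shCtrl. The catalytic subunit Ezh2 was at 63.3 in KO and 63.2 in WT, and at 53.8 in shMef2c and 63.8 in shCtrl. Of 8 genes of the opposing Trithorax group and H3K27 demethylases, 0 were called in either line.

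Markers of other cell states also differed at day 5, and not always in the direction of the Hox genes. Pluripotency markers were higher in 6 of 8 in KO, summing to 1955 FPKM and to 743 in WT, and in 8 of 8 in shMef2c, summing to 2439 and to 500 in shCtrl. Neural progenitor markers were lower in 5 of 8 in KO and in 7 of 8 in shMef2c, and neuron markers in 2 and 6 of 6. Visceral endoderm markers were higher in 6 of 8 and lower in 1 in KO, summing to 121 in KO and 43.9 in WT. In shMef2c they were lower in 3 and higher in 0, summing to 55.7 and to 102 in shCtrl. The controls themselves differed, with 3 of these markers higher in shCtrl than in WT and 0 lower. The KO sum was nearer to that of shCtrl than to that of WT. Mesoderm markers were higher in 1 of 8 in KO (17.7 in KO, 12.4 in WT) and in 3 in shMef2c (52.1 in shMef2c, 16.8 in shCtrl). None of the pluripotency, neural or endoderm markers was at 0 in any day 5 library. The part of these shifts in the Hox levels was not tested.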

How the data were processed

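Polyadenylated RNA of 8 libraries, 1 per group, was analysed, grouped by the labels. Per the file headers, the authors deposited FPKM and estimated counts for every day 5 library, and RPKM and estimated counts in a single day 0 table. Their day 5 comparison tables, called a Poisson method in the labels, hold deposited log2 ratios and p-values with a false discovery rate, of which only directions and counts are quoted. RSEM, Bowtie, Bowtie2, HISAT and HISAT2 appear in the submitters' processing notes without a stated role, beside the build mm9.

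Genes not listed were taken as 0. Ratios were log2((value + 1)/(value + 1)), called at 2-fold with a pair mean of 1 or more. Read share intervals are exact (Clopper-Pearson, 95%), with estimated reads rounded. The scripts were tested on simulated data. Fibroblast, neural and other lists (15 in all), like the Hox genes, were chosen with earlier results of these data known. Hox genes at 1 or more in a library are given by value and the rest by range, and from other lists mainly the members with the largest day 5 ratios. Alternatives were a pseudocount of 0.1, no level filter or one of 5, rescaling to TPM, TMM factors (edgeR 4.0.16), size factors (DESeq2 1.42.0), a fold of 4, the other control and the authors' deposited tables, and, added after the values were seen, read shares. Promoters were matched by symbol to RefSeq, assembly GRCm38.p6, used otherwise for names and gene order. The values of some genes are not reported here, though counts and sums over lists include them.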

Additional observations from a re-analysis of the deposited data

Results flagged for a closer look

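Hoxb9 went opposite ways between KO and WT at the 2 days. Its log2 ratio was -1.31 at day 5, with 0.20 FPKM in KO and 1.98 in WT, and 1.27 at day 0, with 9.52 RPKM in KO and 3.37 in WT. With 1 library per group the difference between the days was not tested, and the days come from separately normalized tables.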

How the results depend on the processing

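The counts of Hox genes called moved under several settings, most often by read shares. For KO over WT at day 5, 6 lower became 13 lower and 1 higher in the authors' deposited table, and 17 lower and 1 higher by read shares. For shMef2c over shCtrl at day 5, 12 higher became 20 in the authors' deposited table, 26 by read shares, 1 with a mean of 5 or more and 2 at a fold of 4, with 0 lower in place of 3. Between shCtrl and WT at day 5, 2 were higher with a pseudocount of 0.1 and 7 by read shares, in place of 0. For KO over WT at day 0, 2 higher became 5 after rescaling to TPM, 1 with a mean of 5 or more, 0 at a fold of 4, 0 against the other control and 13 by read shares, with 1 lower. For the library labelled shMef2c at day 0, 1 was higher against the other control and 4 by read shares, in place of 0. Between shCtrl and WT at day 0, 1 was higher with a pseudocount of 0.1 or after rescaling to TPM, and 5 by read shares, in place of 0. A stricter filter or fold tests or passes fewer genes by construction, and the cause of the other differences was not tested. The remaining counts stayed within 1.5 times under the alternatives run. No paired analysis was possible because each group holds 1 library, and for the same reason no replicate could be left out. Depth limits the genes of groups 10 to 13, most of them under 10 reads in KO and WT at day 5.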
